A study of Mus musculus and Homo sapiens with 10 samples.

Results

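The short human H3K4me3 regions called higher are those of the MDA-MB-231-Luc list of gained regions that are shorter than 1.25 kb. There are 722 of them among the 2611 higher regions of that list (27.7%), among the 3852 regions listed as changed in this line, and among the 4818 regions in all 8 deposited lists. They were chosen by direction and length, so both are descriptions here and carry no test. MDA-MB-231 cells are a widely used human breast cancer line. The comparison set H3K4me3 chromatin immunoprecipitation sequencing (ChIP-seq) of cells carrying a lentiviral short hairpin RNA against CBX8 against that of cells carrying a scrambled hairpin. Both groups were under puromycin selection, both were made from mononucleosomes released with micrococcal nuclease, and each group was 1 library. The lists give positions only, counted here from 1 on the hg19 build, with no fold, p-value or read count, so depth is unknown and no difference has a replicate check.

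H3K4me3, trimethylation of lysine 4 of histone H3, sits mainly on nucleosomes beside the start sites of active genes. Long stretches of the mark are typical of strongly expressed and cell-identity genes, whereas short stretches are also found at weakly used starts and at some active enhancers. CBX8 is a chromodomain subunit of Polycomb repressive complex 1, and WDR5, named with it in the title of the study, is a shared subunit of the enzymes that write H3K4 methylation.

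The short regions were numerous but held little of the gained length. They ran from 300 to 1200 bp with a median of 950 bp (interquartile range 800 to 1100 bp) and covered 662 kb, which was 11.2% of the base pairs in higher regions. Their number climbed from 1 region of 300 bp to 65 regions of 800 bp and then stayed between 42 and 65 per 50 bp step up to the limit. The limit cut through a flat part of the distribution, with 59 regions just inside it at 1200 bp and 61 just outside it at 1.25 kb. The shortest region of all, 300 bp, lay on chromosome X (118321051 to 118321350). It was followed by a region of 350 bp on chromosome 3 (152858101 to 152858450) and another on chromosome 11 (89345301 to 89345650). Next came 3 regions of 400 bp, on chromosome 4 (76769701 to 76770100 and 83192901 to 83193300) and chromosome 5 (95950051 to 95950450).

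**Figure D1:**
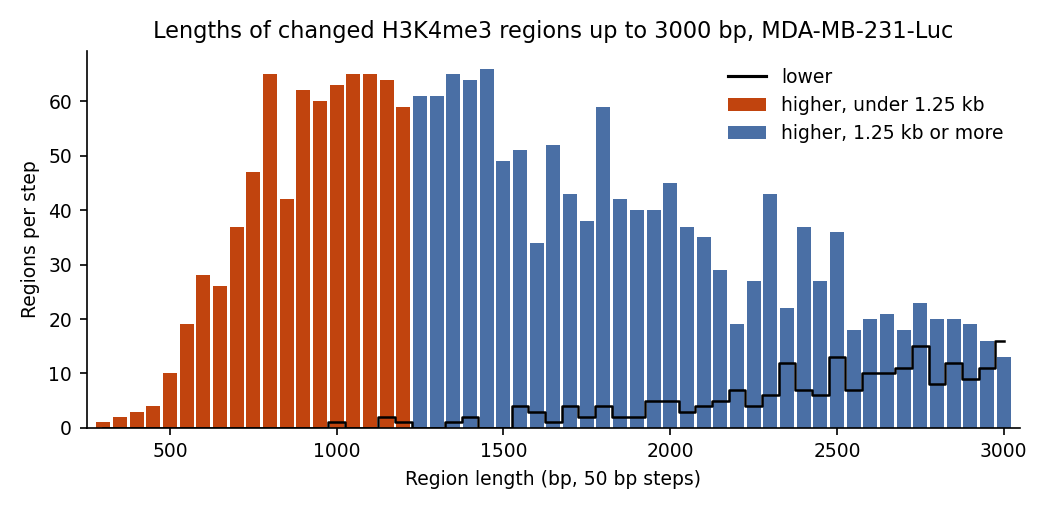
Number of changed H3K4me3 regions (vertical axis) at each region length in bp (horizontal axis, 50 bp steps, up to 3000 bp) in MDA-MB-231-Luc. Bars are higher regions, coloured by whether they are under 1.25 kb, and the black line is lower regions. Higher regions keep about the same number per step on both sides of the limit, and 4 lower regions lie under it.

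Almost no loss of comparable size was listed. Of the 726 changed regions under 1.25 kb, 4 were lower. The lower ones lay on chromosome 12 (15063001 to 15064000 and 110868901 to 110870050), chromosome 11 (122699851 to 122701000) and chromosome 7 (121924601 to 121925800), and were 1000 to 1200 bp long. Among all 3852 listed regions of this line, 67.8% were called higher. Since the members were picked by that direction and by length, nothing follows from their own share.

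The first question was whether the short gains lay at the edges of regions that lost the mark at the same time. Among the listed regions very few did. No higher region of any length overlapped or touched a lower region, but 1 stretch would hardly be called in both directions from 1 pair of libraries. That absence therefore does not bear on the question. How close a gain and a loss could be listed depends on the caller, which is not known. Within 2 kb of one, edge to edge, lay 0 of the 722 short regions (exact 95% binomial interval up to 0.51%) and 2 of all 2611 higher regions. Within 5 kb of a lower region lay 3 of the 722, or 0.416% (0.0858 to 1.21%), beside 5 of the 1889 longer higher regions, or 0.265% (0.086 to 0.617%). Binomial intervals throughout cover counting error over regions only, and they take regions as independent. Regions of 1 pair of libraries are not replicates, so no difference between short and longer regions was tested.

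On chromosome 2 a short region of 550 bp (33355401 to 33355950) lay 2.55 kb before a lower region of 4750 bp (33358501 to 33363250). On chromosome 7 a region of 1000 bp (100765351 to 100766350) lay 2.9 kb before a lower region of 3850 bp (100769251 to 100773100). On chromosome 1 a region of 650 bp (204386451 to 204387100) lay 4.85 kb after a lower region of 7150 bp (204374451 to 204381600). The chromosome 1 region had no other higher region closer than 2343 kb, so it was a lone gain beside a loss.

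The next nearest were farther out. A region of 1200 bp on chromosome 17 (57932101 to 57933300) lay 6.75 kb after a long lower region of 12050 bp (57913301 to 57925350). On chromosome 14, 8.65 kb separated a short region (50374351 to 50375350) from a lower region of 7750 bp (50357951 to 50365700). The chromosome 10 short region (95227751 to 95228900) came 8.7 kb before a lower region of 6550 bp (95237601 to 95244150). A short gain and a loss thus lay within 10 kb of each other at 6 places. That was 0.831% of the 722 short regions, beside 19 of the 1889 longer ones, or 1.01%. The remaining members of the 10 nearest were on chromosome 6 (149081651 to 149082750, at 11.35 kb), chromosome 3 (18481751 to 18482900, at 11.4 kb), chromosome 15 (94794401 to 94795400, at 16.55 kb) and chromosome 4 (69234101 to 69235250, at 17.9 kb). In 7 of these 10 the lower region came before the short one in chromosome coordinates, and in 3 after it.

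At wider distances the short regions were farther from losses than the longer gains were. Their median distance to the nearest lower region was 1120 kb (interquartile range 438 to 2403 kb), against 795 kb for longer higher regions (292 to 1909 kb). Within 50 kb of a lower region were 24 short regions (3.32%, interval 2.14 to 4.91%) and 104 longer ones (5.51%, 4.52 to 6.63%). Within 100 kb were 44 short regions (6.09%, 4.46 to 8.10%) and 198 longer ones (10.5%, 9.14 to 12.0%), and within 1000 kb 46.1% (42.4 to 49.8%) and 56.7% (54.5 to 59.0%). The intervals at 100 and 1000 kb did not overlap, while those at 50 kb did. The higher regions next in length, 765 regions from 1.25 to 1.95 kb, were close to the short ones near losses, with 3.27% (2.13 to 4.79%) within 50 kb and 7.58% (5.81 to 9.69%) within 100 kb. The median distance to a lower region fell step by step with length, to 871 kb in that class, 806 kb from 2 to 2.95 kb and 668 kb at 3 kb or more. Within chromosomes only short and longer regions were compared, and the short median was the larger on 17 of 23 and the smaller on 6.

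**Figure D2:**
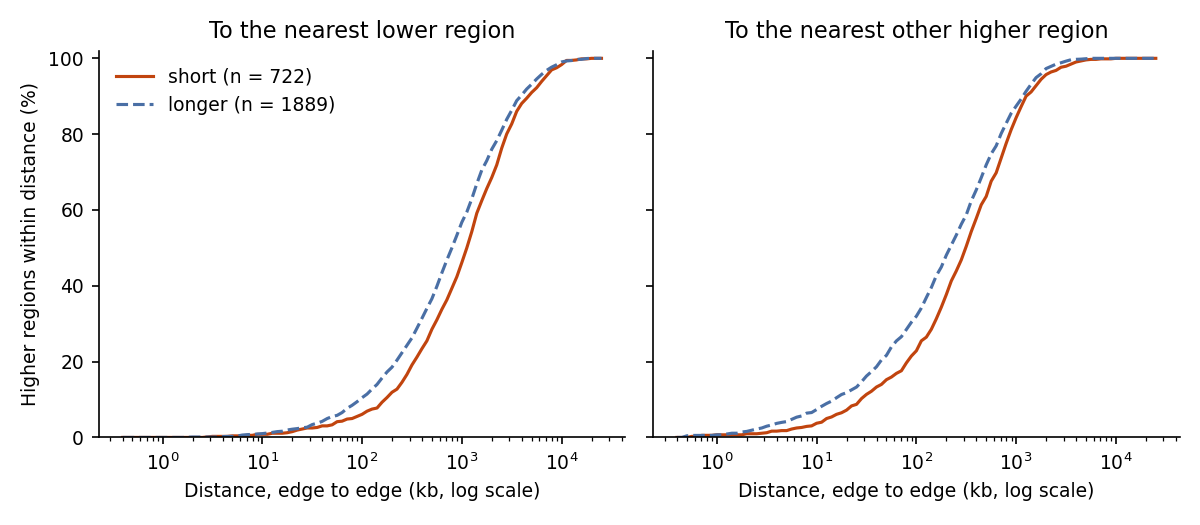
Cumulative share of higher H3K4me3 regions (vertical axis, percent) within a given edge-to-edge distance (horizontal axis, kb, log scale) of the nearest lower region (left) or the nearest other higher region (right). The curve for the 722 short regions runs below that for the 1889 longer ones from 100 to 1000 kb in both panels.

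The losses were then taken as the starting point. Of the 125 lower regions with a higher region within 50 kb, the nearest higher region was short for 27, or 21.6% (14.7 to 29.8%). Within 1000 kb the figure was 242 of 1013, or 23.9% (21.3 to 26.6%). Short regions made up 27.7% of all higher regions, a share inside the first interval and above the second. Both figures draw on the same distances between higher and lower regions as above, so they are not a separate result. The lower regions nearest to the 24 short gains within 50 kb had a median length of 4875 bp. Those nearest to the short gains farther away had a median of 4775 bp, and those nearest to the 104 longer gains within 50 kb one of 5625 bp. The median of all 1241 lower regions was 4400 bp.

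Order along the chromosome gave a similar picture for both length groups. Among the 713 short regions with a listed neighbour on each side, 414 stood between higher regions (58.1%, 54.3 to 61.7%), 251 between a lower and a higher one (35.2%, 31.7 to 38.8%) and 48 between lower ones (6.73%, 5.01 to 8.83%). For 1866 longer regions the shares were 54.8% (52.5 to 57.1%), 37.7% (35.5 to 40.0%) and 7.45% (6.30 to 8.74%). All 3 pairs of intervals overlapped. A loss within 100 kb on both sides was found for 3 of the 713 short regions (0.421%) and 6 of the 1866 longer ones (0.322%).

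The farthest short regions lay in stretches with no listed loss, as did the farthest longer ones, which reached 18150.8 kb from a lower region. The short region on chromosome X at 154871151 to 154871800 lay 18.9 Mb from the nearest lower region. At the start of chromosome 8, short regions at 1703601 to 1704750, 2791851 to 2792950, 3965101 to 3965750 and 6218651 to 6219300 all had their nearest lower region at 17350901 to 17357350, so 11.1 to 15.6 Mb away. Of the 722 short regions, 389 had no lower region within 1 Mb of either side (53.9%, 50.2 to 57.6%), against 817 of the 1889 longer ones (43.3%, 41.0 to 45.5%). These are the complements of the shares within 1000 kb given above, not a further result. With neither a lower nor another higher region within 1 Mb were 67 short regions (9.28%, 7.26 to 11.6%) and 119 longer ones (6.30%, 5.25 to 7.49%).

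The second question was whether short gains cluster in neighbourhoods. Mostly they stood alone: 613 of the 722 had no other higher region within 50 kb. The 109 that did have one were 15.1% (12.6 to 17.9%), beside the 402 of 1889 longer regions, 21.3% (19.5 to 23.2%). Chains of 3 or more higher regions, with gaps of up to 50 kb, held the 2 groups about equally often. They held 32 short regions (4.43%, 3.05 to 6.20%) and 81 longer ones (4.29%, 3.42 to 5.30%). The short share was an average over unlike lengths. It was 11 of 406 under 1000 bp (2.71%, 1.36 to 4.80%) and 21 of 316 from 1000 to 1200 bp (6.65%, 4.16 to 9.98%), with overlapping intervals. The median distance to the nearest other higher region was 311 kb for short regions (interquartile range 110 to 737 kb) and 216 kb for longer ones (60.3 to 570 kb). Within chromosomes, the short median was the larger on 18 of 23 and the smaller on 4.

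At 50 kb the lower share was that of the members under 1000 bp. Regions under 1000 bp had another higher region within 50 kb in 46 of 406 cases, or 11.3% (8.42 to 14.8%). Those of 1000 to 1200 bp had one in 63 of 316 cases, or 19.9% (15.7 to 24.8%), close to the 20.9% (18.1 to 24.0%) of regions from 1.25 to 1.95 kb. From there on the share stayed level, at 20.7% of regions from 2 to 2.95 kb and 22.3% of those of 3 kb or more. At wider distances the short classes were alike: within 500 kb of another higher region lay 63.8% (58.9 to 68.5%) under 1000 bp and 63.3% (57.7 to 68.6%) from 1000 to 1200 bp, beside 71.8% (68.4 to 74.9%) from 1.25 to 1.95 kb. The medians were 321, 288.5 and 232 kb in that order. Near losses, 2.46% (1.19 to 4.48%) of regions under 1000 bp and 4.43% (2.44 to 7.32%) of those from 1000 to 1200 bp lay within 50 kb of a lower region, with overlapping intervals. Class edges other than 1000 bp and the limit were set after values had been seen.

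**Figure D3:**
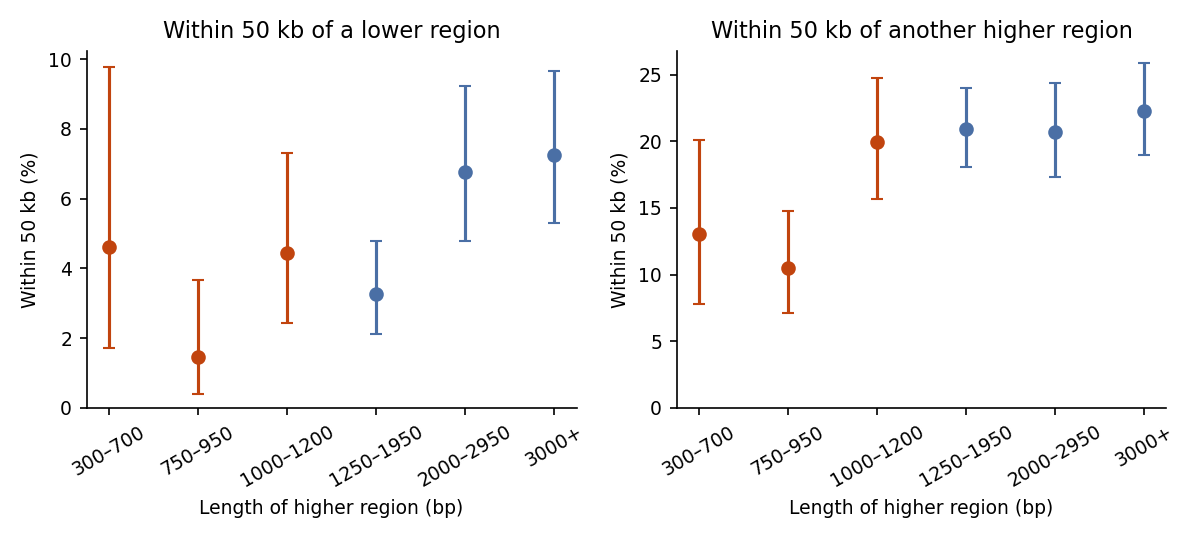
Share of higher regions (vertical axes, percent) within 50 kb of a lower region (left) or of another higher region (right), by length of the higher region in bp (horizontal axes). Points are shares, bars are exact 95% binomial intervals over regions, and the first 3 classes are the short regions. The right panel is at 10.5 to 13.1% below 1000 bp and at 19.9 to 22.3% above it.

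By count, the nearest company of short gains was more often short than that of longer gains. The nearest higher region within 50 kb was itself short for 30 of 109 short regions, or 27.5% (19.4 to 36.9%), an interval that holds the 27.7% of short regions in the whole list. For longer regions it was short in 71 of 402 cases, or 17.7% (14.1 to 21.7%). Within 100 kb it was short for 47 of 165 short regions, or 28.5% (21.7 to 36.0%). For longer ones it was short in 101 of 604 cases, or 16.7% (13.8 to 19.9%), and these intervals did not overlap. However, regions that were each other's nearest were both counted, so the cases are not all separate observations. The intervals take them as separate, and their lack of overlap therefore does not show a difference. The nearest higher region within 50 kb had a median length of 1500 bp for short regions and 2075 bp for longer ones. In all, 84 short regions shared a neighbourhood with a longer one, and 25 lay in neighbourhoods of short regions only. A neighbourhood here is a chain of higher regions with gaps of up to 50 kb. Single regions included, 698 neighbourhoods held a short region, of which 677 held 1, 18 held 2 and 3 held 3.

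Few short regions lay close enough to another gain to be joined with it. The closest pair lay on chromosome 11, where 550 bp separated a region of 1150 bp (28641501 to 28642650) from one of 700 bp (28643201 to 28643900). On chromosome 6 a gap of 700 bp lay between regions of 1100 bp (150216401 to 150217500) and 550 bp (150218201 to 150218750). Joining higher regions with gaps of up to 1 kb would take 5 of the 722 past the length limit, and joining across 5 kb would take 13, which leaves 709.

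The neighbourhoods with the most short regions were spread over 3 chromosomes. The first, 42.55 kb on chromosome 11 (89345301 to 89387850), held short regions of 350, 1150 and 1000 bp and a longer one of 1950 bp. Its nearest lower region was 6683 kb away. The chromosome 6 neighbourhood (150216401 to 150261050, 44.65 kb) held short regions of 1100, 550 and 1000 bp and a longer one of 2000 bp, and a lower region lay 37.25 kb before it. The next neighbourhood, 59.45 kb on chromosome 4 (65041451 to 65100900), was made of short regions alone, of 1150, 1050 and 1100 bp, with gaps of 22.1 and 34.05 kb.

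Among the 7 neighbourhoods with 2 short regions among 3 higher ones, those of smallest span were both on chromosome 4. One (67428701 to 67456050) began with a longer region of 4000 bp, followed by short ones of 1050 and 900 bp at gaps of 7.8 and 13.6 kb. The other (183133051 to 183169150) ended with a longer region of 5250 bp, 3.1 kb after a short region of 1100 bp. In both, and in the chromosome 6 neighbourhood, the short regions all lay on one side of the longer gain. The chromosome 11 neighbourhood had short regions on both sides of its longer one. The order by span was settled after the counts were seen.

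**Figure D4:**
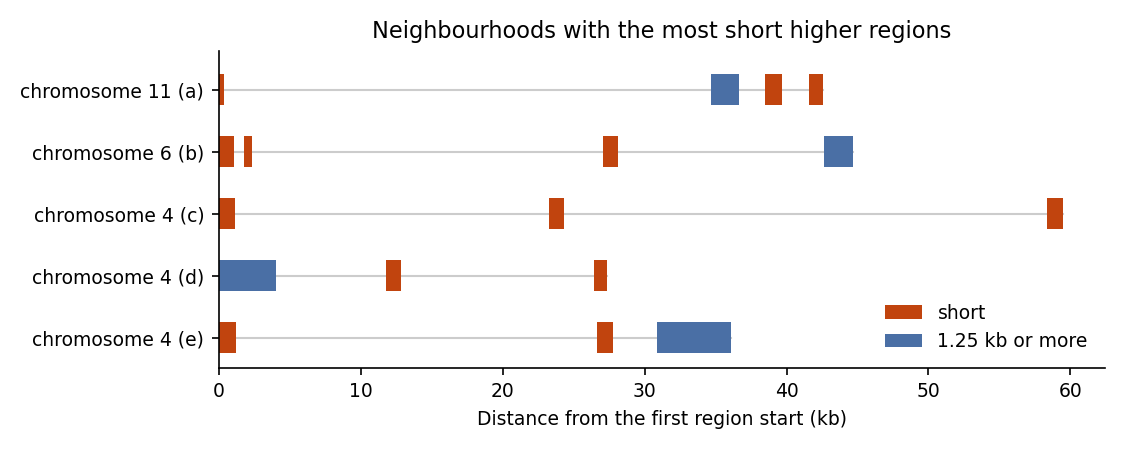
The 5 neighbourhoods with the most short higher regions, drawn to scale in kb from the start of the first region of each (horizontal axis), 1 neighbourhood per line. Blocks are higher regions, coloured by length under or over the limit. The uppermost chromosome 4 neighbourhood holds short regions only, and the other lines each hold 1 longer region.

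At the scale of 1 Mb, most windows that held a short region held only 1. Longer regions were not counted in this way and no even spread was computed. The counts therefore cannot tell scatter from gathering. They occupied 596 windows of 1 Mb, of which 495 held 1, 80 held 2, 17 held 3 and 4 held 4. The 4 fullest windows, picked for their counts, were chromosome 3 from 173 to 174 Mb, chromosome 4 from 65 to 66 Mb, chromosome 10 from 2 to 3 Mb and chromosome 11 from 30 to 31 Mb. On chromosome 11 all 4 higher regions of the window were short and no region was lower. The chromosome 10 window held 8 higher regions in all and no lower one.

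Short regions were found on all 23 chromosomes that had a higher region, 1 to 22 and X. Chromosomes 1 and 3 held 61 each, chromosome 4 held 60 and chromosome 5 held 56. Chromosome 22 held 5. The share of higher regions that were short ran from 16.7% of 30 on chromosome 22 (5.64 to 34.7%) to 47.1% of 34 on chromosome 21 (29.8 to 64.9%). Chromosome 21 was the 1 chromosome of 23 whose interval left out the 27.7% of the whole list. It rests on 16 short regions, and the 23 intervals were not corrected for their number, so no excess there is shown. Chromosomes 14 and 19, where 89 and 85 regions were lower, had shares of 19.5% (11.3 to 30.1%) and 18.8% (10.1 to 30.5%). Chromosomes 6 and 1 had the most lower regions, 131 and 116, and shares of 29.3% (22.8 to 36.5%) and 28.5% (22.6 to 35.1%). On chromosome 22, which had the smallest share, 13 regions were lower. All of these intervals include the 27.7% of the whole list.

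**Figure D5:**
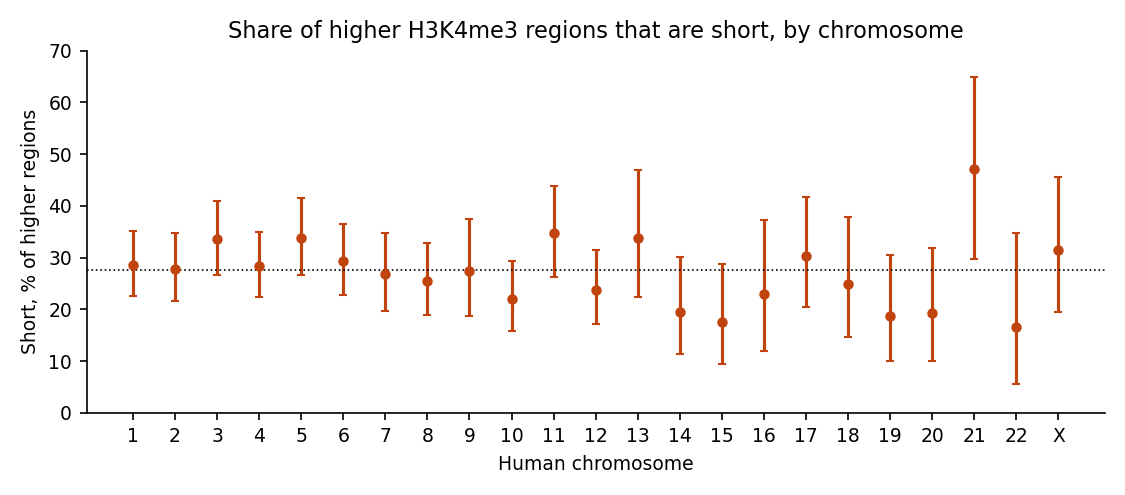
Short regions as a share of all higher H3K4me3 regions (vertical axis, percent) on each human chromosome (horizontal axis). Points are shares, bars are exact 95% binomial intervals over regions, and the dotted line is the 27.7% of the whole list. The intervals of 22 chromosomes include the line and that of chromosome 21 lies above it.

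The third question, how far the short regions lie from promoters, was not answered here, because no gene annotation or genome of hg19 was used. No region is tied to a gene, and no base sequence is printed. The distances above are between listed regions alone. An unlisted place is not shown to be unchanged, since the lists hold only what passed the authors' threshold.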

How the data were processed

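H3K4me3 ChIP-seq was deposited for MDA-MB-231-Luc cells with 1 library per hairpin, beside an input. The authors' deposited lists hold start and end positions of changed regions and no other value. A q-value of 0.002 is given in the names of the deposited human lists, and higher and lower follow the direction named there. The tools MACS2 2.1.0, SICER, Bowtie 1.0.0 and FastQC 0.10.0, and the build hg19, are named per the submitters' processing notes. Which tool called the differences, the use of the input and any depth scaling are not given in the sources used here. A caller's minimum length or the joining of close windows would alter lengths and gaps, so the class of short regions depends on it.

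All starts lay on a 50 bp grid and all ends 1 bp below it, so length was taken as end + 1 - start. Distances are edge to edge on the same chromosome. Shares carry exact (Clopper-Pearson) 95% intervals. With 1 library per condition no test was made. Code was tested on simulated data. Python 3.11.15, numpy 2.4.6, pandas 2.3.3, scipy 1.17.1 and matplotlib 3.10.9 were used.

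The members and distances were chosen with earlier results of these data known. Regions named were the 10 nearest to a lower region, those in the 5 neighbourhoods with most short regions, the shortest (6, because of ties) and the regions beside the length limit. The farthest regions, the closest pairs and the 1 Mb windows were picked for their values. Gene lists drawn up for regions near gene starts were not used, for want of an hg19 annotation here.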

Additional observations from a re-analysis of the deposited data

How the results depend on the processing

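Depth is unknown, and counts of regions limit what can be seen: 3 flanking regions cannot rank short against longer gains. With lengths under 1000 bp, 11.3% lay within 50 kb of another higher region and 2.71% in neighbourhoods of 3 or more, against 15.1% and 4.43% under 1.25 kb. By construction, wider distances raised the shares and narrower ones lowered them. Flanking shares were 0% at 2 kb, 1.66% at 20 kb and, from midpoint to midpoint, 0% at 5 kb. Shares near another higher region were 7.20% at 20 kb and 22.9% at 100 kb, and those in neighbourhoods of 3 or more 0.554% and 8.59%. Short regions stayed below longer ones near another higher region under every alternative run. The contrasts within 5 kb of a lower region and in neighbourhoods of 3 or more changed sign under some alternatives and kept it under others. Short minus longer within 5 kb of a lower region was 0.15 percentage points, but -0.029 under 1500 bp, -0.11 at 2 kb, -0.17 at 10 kb, -0.51 at 20 kb and -0.053 between midpoints. In neighbourhoods of 3 or more it was 0.14, but -1.92 under 1000 bp, -0.31 under 1500 bp, -0.88 at gaps of 20 kb, -1.42 at 100 kb and -0.10 without chromosomes 8 and X. The median distance to a lower region was 1.41 times that of longer regions, and 1.35 to 1.43 times under the alternatives. Midpoints, merging at 5 kb and leaving out chromosomes 8 and X were chosen after seeing the data. Settings for gene starts were not run, for want of an hg19 annotation here. No paired analysis was possible because each condition had 1 library.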

Other observations

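Short regions were placed differently among the lists of the series. In mouse MMTV-Myc cells, 126 of the 701 lower H3K4me3 regions were under 1.25 kb (18.0%) and 0 of the 18 higher ones, whereas in MDA-MB-231-Luc it was 4 of 1241 lower and 722 of 2611 higher regions. Of the mouse H3K27ac regions, 35 of 166 lower and 6 of 16 higher ones were that short, and of the mouse H3K27me3 regions 0 of 63 lower and 0 of 2 higher. The mouse lists were called at other thresholds, and no difference between the lines was tested.

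The human list of higher regions is not in chromosome order, and its order is not explained in the sources used here. Short regions were scarce at its head. The first of them stood at place 84, they were 5.73% of the first 262 places (3.24 to 9.27%) and 16.9% of the next 261 (12.5 to 22.0%), and they were 26.1 to 36.0% of each later run of 261 places.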
